A study of Rattus norvegicus with 9 samples.

Results

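The cytosolic ribosomal protein genes were followed across normal rat tongue, tongue exposed to the carcinogen 4-nitroquinoline oxide (4NQO) and exposed tongue that was also injected with IL-1Ra, the antagonist of the interleukin-1 receptor. Members were all probe sets whose annotation gave a single gene symbol of the Rps or Rpl series, together with Rpsa and Rplp0, and with the ribosomal S6 kinases and pseudogenes left out. This rule found 55 of the 31042 probe sets tested, and they represented 48 of the 14217 genes that had a probe set of their own. For each gene the probe set with the highest mean log2 intensity over the 9 arrays was used. The 48 genes comprised 13 of the small subunit, 28 of the large subunit, the stalk protein Rplp0 and 6 paralogs, which are relatives of a ribosomal protein encoded by a separate gene (Rpl3l, Rpl7l1, Rpl26l1, Rpl39l1, Rps27l and Rps4y2).

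The cytosolic ribosome translates nuclear messages. Its small subunit reads the message, its large subunit forms the peptide bonds, and the acidic stalk of the large subunit recruits elongation factors. Each ribosomal protein is needed in about equal amounts, and the messages of many of them begin with a run of pyrimidines, the 5' terminal oligopyrimidine (TOP) tract, through which mTORC1 controls how actively they are translated. Tongue holds a stratified epithelium with a growing basal layer above connective tissue and a large mass of skeletal muscle.

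The start of the messages was examined first, as a feature that the choice of members did not use. Promoter entries of RefSeq on the rat assembly GRCr8 were matched by symbol for 43 of the 48 genes, on 14 chromosomes. Rpl7, Rpl23a, Rpl27, Rpl30 and Rps29 were not matched. The following sequences run 5' to 3' on the coding strand, with 15 bases before the annotated start and 15 from it. Capitals mark an unbroken run of C and T that opens with C at the annotated start and holds at least 4 more pyrimidines. The first 5 were chosen to show that run in both subunits and the stalk, and the last 4 to show its absence in 3 paralogs and in Rps6.
Rpl19 (chr10:83519049-83519078, plus strand): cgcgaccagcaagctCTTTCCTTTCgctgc
Rpl35 (chr3:43165907-43165936, minus strand): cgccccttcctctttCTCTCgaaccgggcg
Rpl37a (chr9:81748076-81748105, plus strand): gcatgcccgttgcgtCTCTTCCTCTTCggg
Rps15 (chr7:10068101-10068130, minus strand): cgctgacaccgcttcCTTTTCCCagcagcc
Rplp0 (chr12:46718376-46718405, minus strand): gaccgcaccgcacttCTCTCgccaggcgtc
Rpl3l (chr10:14258431-14258460, plus strand): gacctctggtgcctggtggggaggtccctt
Rpl7l1 (chr9:21695703-21695732, plus strand): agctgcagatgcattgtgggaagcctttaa
Rps27l (chr8:76443643-76443672, plus strand): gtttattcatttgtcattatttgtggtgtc
Rps6 (chr5:106420526-106420555, minus strand): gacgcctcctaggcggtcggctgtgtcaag
A run of this kind stood at the annotated start of 12 of the 43 members, which is 27.9%, against 2.63% of all 33469 promoter entries. All 12 were among the 37 core members, and 0 of the 6 paralogs had it. The letters CTTTC occurred on the coding strand within 25 bases either side of the annotated start in 19 members (44.2%) and in 6.39% of all entries. They can overlap the run described above. The same letters on the opposite strand, GAAAG, were found in 0 members and in 6.45% of all entries. Annotated starts can differ from the start used in tongue, so these counts describe the annotated letters.

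The arrays measured total RNA of whole tongue tissue from male Sprague-Dawley rats, with 3 arrays per group. The normal group drank distilled water. The 4NQO group drank water with 0.002% 4NQO and, by the labels, animals were killed between week 14 and week 22 once visible lesions had developed. The methods give a weekly submucosal injection into the middle of the tongue over the last weeks of the course, of rat recombinant IL-1Ra in the IL-1Ra group (labelled 4NQO+IL-1Ra) and of saline in the 4NQO group, with all animals killed at the end of week 22. The labels do not give the lesion stage of an array and do not state that the arrays of a group came from separate animals, so the tests measure the spread between these samples. Skeletal muscle markers were bright on every array, with a summed linear intensity of 76130 to 104300. In bulk tissue, fewer cells of a type and less RNA per cell cannot be told apart.

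Ribosomal protein genes differed little between the groups. By limma, 0 of the 48 members had an adjusted p under 0.05 in 4NQO against normal tongue, where 14.9% of all probe sets did. The count was 0 of 48 in IL-1Ra against 4NQO (2.33% of all probe sets) and 0 of 48 in IL-1Ra against normal (1.87% of all probe sets). At an unadjusted p under 0.05 the counts were 3, 0 and 2 of 48, where 32.9%, 19.0% and 22.7% of all probe sets had such a p. A Student t-test at the study's threshold without adjustment or fold limit passed 3, 0 and 25 members, where 26.5%, 12.0% and 24.5% of all probe sets passed. After Benjamini-Hochberg adjustment the t-test passed 0 members in each. The moderated F test over the 3 groups called 1 member, Rpl7l1, and 12.0% of all probe sets.

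The size of the differences was bounded closely. The 95% interval of the difference lay within 2-fold in either direction for all 48 members in each of the 3 comparisons. Most genes met this bound, with 12383, 12790 and 12786 of all 14217 in 4NQO against normal, IL-1Ra against 4NQO and IL-1Ra against normal. The interval lay within 1.5-fold for 42 members in 4NQO against normal, for 45 in IL-1Ra against 4NQO and for 42 in IL-1Ra against normal. Of all 14217 genes 6819, 8871 and 8145 met that narrower bound in the same order. These intervals are those of single genes on the deposited scale, and how far probe saturation or normalization narrows differences of bright probe sets was not tested. The median log2 difference of the members was 0.15 (1.11-fold) in 4NQO against normal, beside 0.08 over all genes. It was -0.05 in IL-1Ra against 4NQO, beside -0.04 over all genes, and 0.11 (1.08-fold) in IL-1Ra against normal, beside 0.04 over all genes. Most members were bright, and without the dimmest 40% of probe sets the medians lay closer together. In 4NQO against normal they were then 0.155 for members and 0.135 for all probe sets kept. In IL-1Ra against 4NQO they were -0.051 and -0.067, and in IL-1Ra against normal 0.119 and 0.079.

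**Figure D1:**
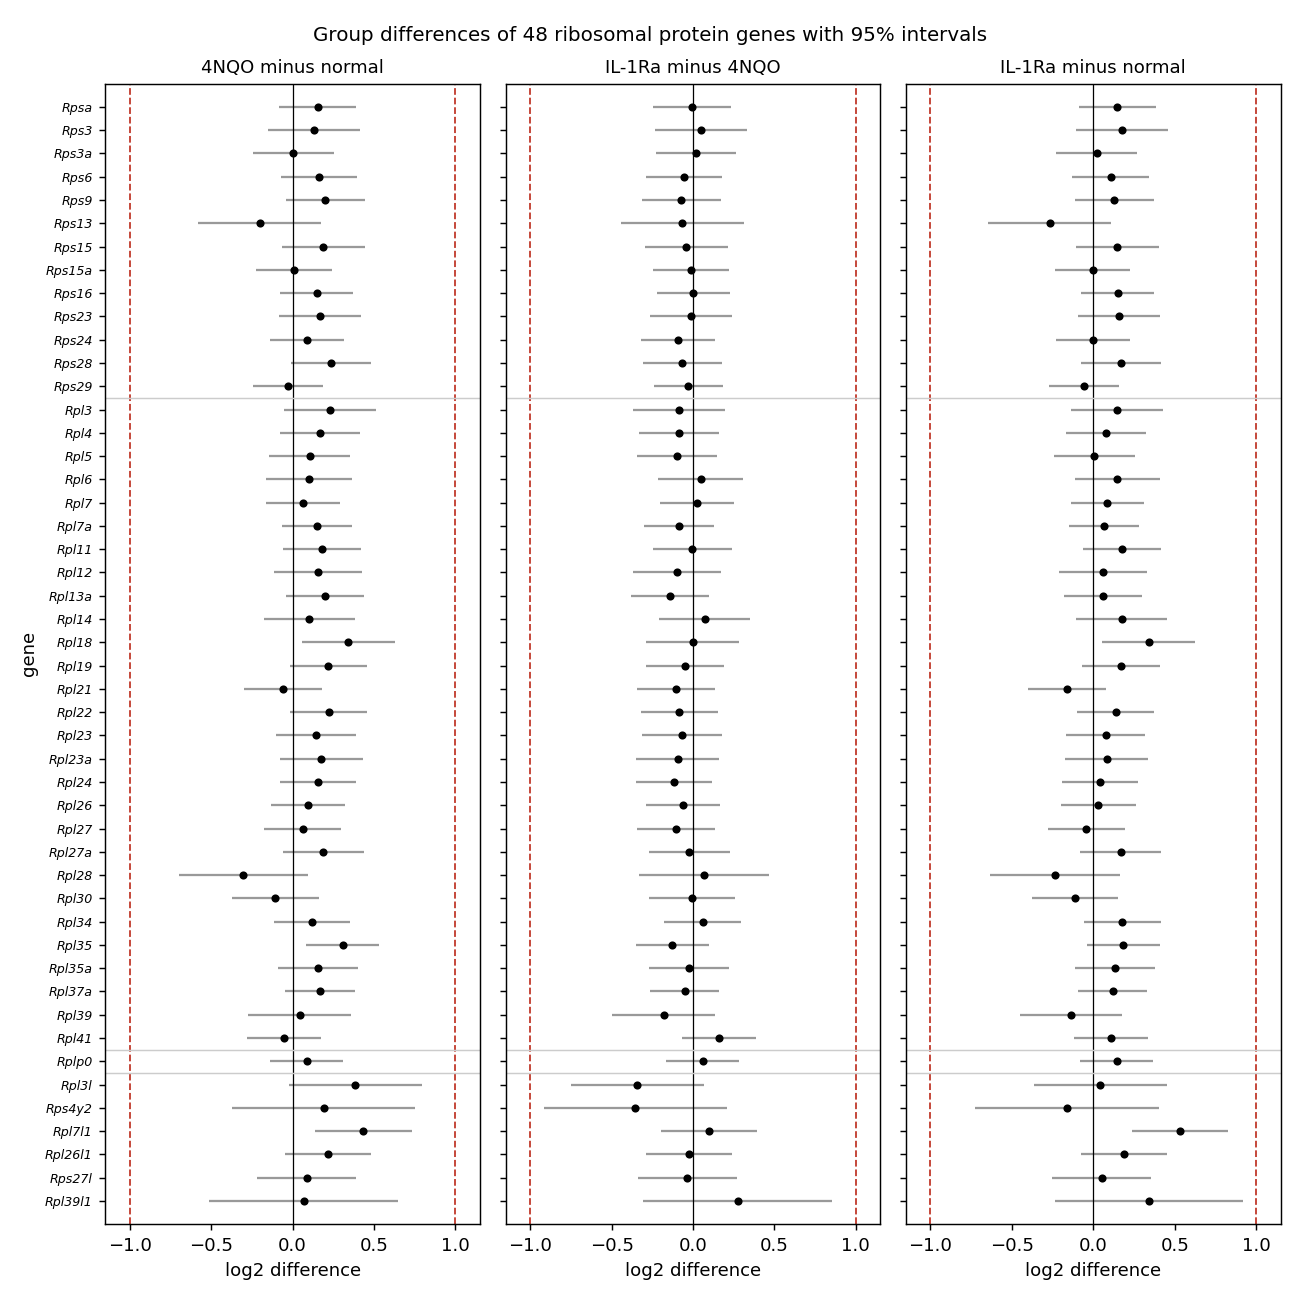
Fitted log2 difference (point) and its 95% interval (line) for the 48 ribosomal protein genes in 3 comparisons, with genes on the y axis in the order small subunit, large subunit, stalk and paralogs and 2-fold marked by dashed lines. Every interval lies inside the dashed lines, and Rpl7l1 has the highest difference in both comparisons with normal tongue.

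Most members nevertheless lay on one side of the normal level. The fitted difference was above 0 for 42 of 48 members in 4NQO against normal and for 38 of 48 in IL-1Ra against normal, where it was above 0 for 58.0% and 56.2% of all 14217 genes. In IL-1Ra against 4NQO it was above 0 for 12 of 48 members and for 43.3% of all genes. The shares of all genes take in dim ones, and shares of bright genes alone were not counted. All 3 IL-1Ra arrays exceeded all 3 normal arrays for 27 of 48 members (56.25%), against 25.9% of all genes and 19.4% of all probe sets. All 3 4NQO arrays exceeded all 3 normal arrays for 15 of 48 members (31.25%), against 26.5% of all genes and 20.6% of all probe sets. All 3 IL-1Ra arrays exceeded all 3 4NQO arrays for 0 members, against 9.31% of all genes and 8.92% of all probe sets. No test was run on these counts, since the members share the same arrays.

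A single array carried much of the 4NQO values. 4NQO array 3 was the highest of all 9 arrays for 36 of 48 members. It was the highest 4NQO array for 38 of the 41 bright members, those above the upper quartile of every array. The median deviation of the members from the normal mean was 0.04 on 4NQO array 1, 0.09 on array 2 and 0.30 on array 3 (log2 scale). On the IL-1Ra arrays it was 0.11, 0.10 and 0.11, and on the normal arrays 0.04, -0.04 and 0.02. The 3 IL-1Ra arrays thus lay between the second and the third 4NQO array and hardly differed from one another. Over all genes the median deviation was 0.09, 0.07 and 0.05 on 4NQO arrays 1, 2 and 3, lowest on array 3. The share of all genes that were highest on 4NQO array 3 was not counted. The median standard deviation of a bright member within its group was 0.05 in normal tongue, 0.16 in 4NQO and 0.03 in IL-1Ra. Over all probe sets it was 0.11, 0.19 and 0.15 in the same order. Without 4NQO array 3 the median difference in 4NQO against normal was 0.07, with 35 of 48 members above 0. In IL-1Ra against 4NQO it turned from -0.05 to 0.03, with 35 of 48 above 0.

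**Figure D2:**
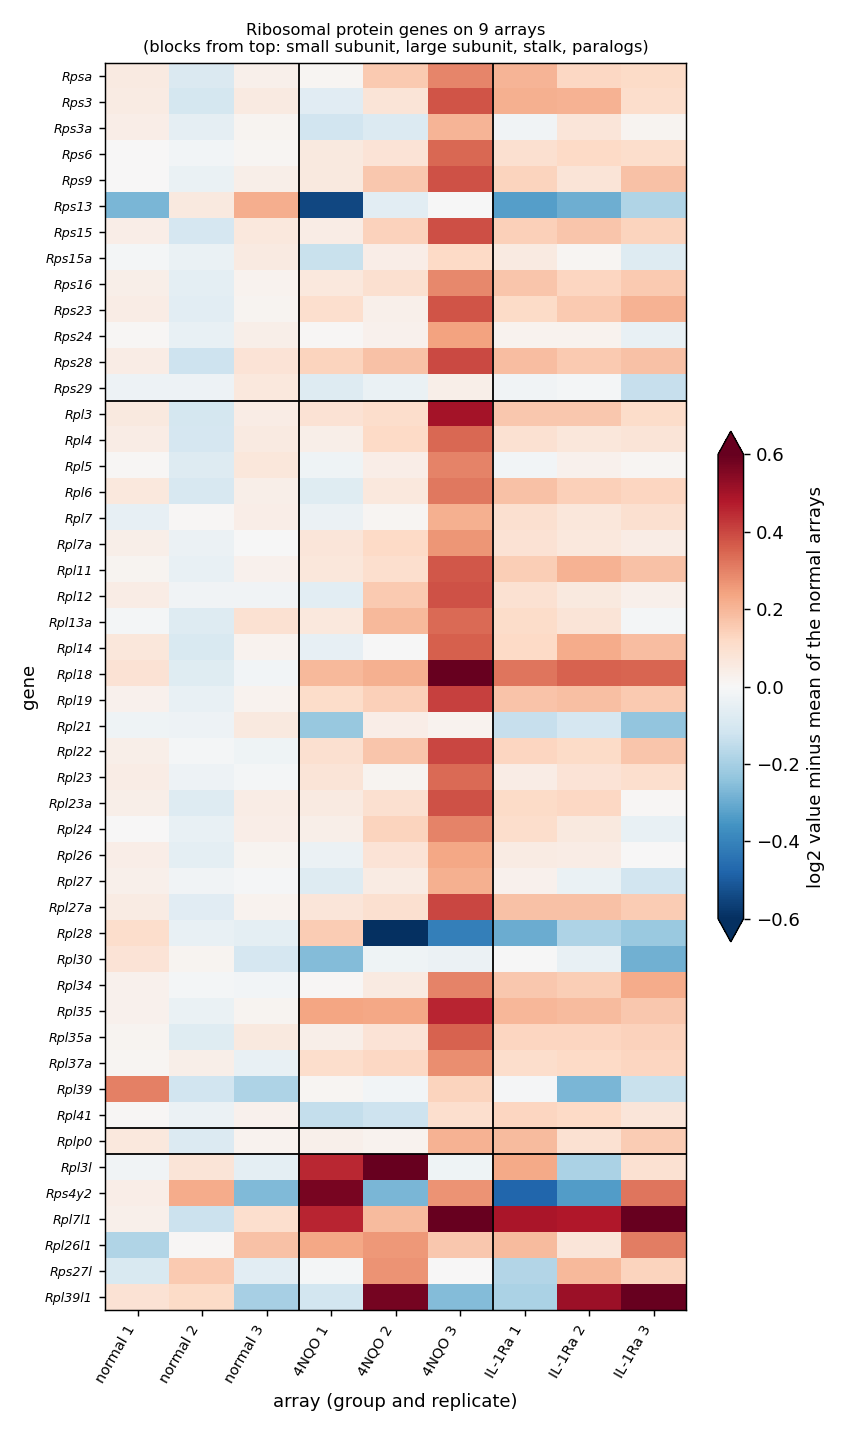
Log2 value of each of the 48 ribosomal protein genes on each of the 9 arrays minus the mean of the gene's 3 normal arrays, with red above and blue below the normal mean and the colour scale ending at 0.6 either way. 4NQO array 3 is the reddest column, and the IL-1Ra arrays show a paler and even shade.

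Marker genes of other cell types differed between the 4NQO arrays as well. Over all 14217 genes 12.4% rose and 5.08% fell in 4NQO against normal, and 1.91% rose in IL-1Ra against 4NQO. Of 9 measured basal keratinocyte markers, 6 rose and 0 fell in 4NQO against normal tongue, and their median deviation from the normal mean was 0.99 on 4NQO array 1, 0.96 on array 2 and 1.65 on array 3. Their summed linear intensity ranged from 8066 to 13920 over the normal arrays, from 15050 to 28270 over the 4NQO arrays and from 15930 to 20300 over the IL-1Ra arrays. Of 9 markers of cycling cells 3 rose and 0 fell, and their median deviation was 0.26, -0.11 and 1.01 on the same 4NQO arrays. The summed intensity of the cycling markers was 879.7 to 1279 on normal, 1261 to 2317 on 4NQO and 1434 to 1879 on IL-1Ra arrays. Both lists were highest on 4NQO array 3. Of 10 fibroblast markers 8 fell and 0 rose in 4NQO against normal, with median deviations of -0.50, -1.79 and -1.26 on the 4NQO arrays and summed intensities of 22050 to 25740 on normal, 5785 to 16320 on 4NQO and 14830 to 18990 on IL-1Ra arrays. Of 12 differentiated keratinocyte markers 4 fell and 0 rose, with deviations of -0.83, -2.27 and -0.37 and summed intensities of 56270 to 61320, 20620 to 45700 and 67050 to 67560 in the same order of groups, and 3 rose in IL-1Ra against 4NQO. Of 12 leukocyte markers 2 fell and 0 rose in 4NQO against normal, with deviations of -0.02, -0.58 and -0.29 and summed intensities of 2709 to 4443, 1518 to 3625 and 3821 to 5425. These lists of fibroblasts, differentiated keratinocytes and leukocytes were lowest on 4NQO array 2, not on array 3. Lists of Schwann cells (3 markers), adipocytes (5) and salivary gland (4) were lowest of the 4NQO arrays on array 3. Their deviations there were -0.97, 0.11 and -0.35, and 0 of these markers were called in 4NQO against normal. Skeletal muscle markers, of which 0 of 19 were called in that comparison, were also lowest on array 3. Their deviations were 0.03, 0.01 and -0.08 on 4NQO arrays 1, 2 and 3. Of 7 endothelial markers 4 rose and 0 fell, with deviations of 0.88, 0.92 and 0.41 and summed intensities of 1428 to 1606, 1906 to 2483 and 1494 to 1839. The part of these markers in the ribosomal protein values was not tested. The 3' minus 5' difference of the beta-actin control probe sets, which reads RNA integrity, averaged 0.802 in normal, 1.202 in 4NQO and 1.13 in IL-1Ra samples on the log2 scale. An exact two-sided permutation test gave p = 0.1 for both comparisons with normal, the smallest that 3 arrays against 3 allow. The other controls did not follow the same order of groups. The GAPDH control gave 0.268, 0.347 and 0.266 in the same groups, with exact p = 0.1 for 4NQO against either other group and 0.9 for IL-1Ra against normal. The hexokinase control gave 1.501, 1.496 and 1.98, with exact p = 1.0 for 4NQO against normal and 0.1 for IL-1Ra against either other group. Within the 4NQO group, array 3 had the highest value of each control, 1.29 for beta-actin, 0.427 for GAPDH and 1.78 for hexokinase. For hexokinase every IL-1Ra array was higher still. The part of RNA integrity in the values was not tested either.

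In the small subunit, 11 of 13 members lay above 0 in 4NQO against normal and none was called. Rps6, the subunit protein that S6 kinases phosphorylate, had log2 intensities of 12.87, 12.86 and 12.88 on the normal arrays, 12.93, 12.95 and 13.21 on the 4NQO arrays and 12.96, 12.99 and 12.98 on the IL-1Ra arrays. All exposed arrays lay above all normal arrays, and the IL-1Ra values fell inside the 4NQO range. The fold was 1.12 in 4NQO against normal, with a 95% interval of 0.951 to 1.32 and limma adjusted p = 0.308, and 1.08 in IL-1Ra against normal with adjusted p = 0.578. Rpsa, which is also known as a laminin receptor, had 11.81, 11.67 and 11.79 in normal, 11.77, 11.91 and 12.05 in 4NQO and 11.96, 11.88 and 11.87 in IL-1Ra tongue. Its normal and 4NQO arrays overlapped, while the IL-1Ra arrays all lay above normal, and the limma adjusted p was 0.340 and 0.435 in those comparisons.

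Rps13, a core protein of the small subunit, had the lowest difference of all members in IL-1Ra against normal. Its intensities were 3.43, 3.76 and 3.92 in normal, 3.16, 3.64 and 3.70 in 4NQO and 3.37, 3.41 and 3.52 in IL-1Ra tongue, and the groups overlapped. The difference in IL-1Ra against normal was -0.27 ± 0.17 (SE) with limma adjusted p = 0.374. This probe set lay below the lower quartile of the arrays, where the signal is near background. Together with Rpl28, Rpl30, Rpl39, Rpl26l1 and Rps4y2 it formed the 6 members with a mean below the median of the arrays, and what these dim probe sets read is less certain than for the bright ones.

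In the large subunit, 24 of 28 members lay above 0 in 4NQO against normal, 6 in IL-1Ra against 4NQO and 23 in IL-1Ra against normal, with none called. Rpl5 and Rpl11 bind 5S ribosomal RNA and, when free of the ribosome, bind Mdm2, the ubiquitin ligase that degrades p53. Rpl5 had 12.80, 12.72 and 12.87 in normal, 12.77, 12.84 and 13.10 in 4NQO and 12.78, 12.82 and 12.81 in IL-1Ra tongue. The IL-1Ra arrays of Rpl5 lay inside its normal range, and its fold in IL-1Ra against normal was 1.00 with a 95% interval of 0.846 to 1.19. Rpl11 had 12.45, 12.39 and 12.45 in normal, 12.50, 12.53 and 12.80 in 4NQO and 12.58, 12.64 and 12.60 in IL-1Ra tongue. All exposed arrays of Rpl11 lay above the normal ones, by 1.13-fold in both comparisons, with limma adjusted p = 0.272 for 4NQO and 0.362 for IL-1Ra.

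Rpl28 had the lowest difference of all members in 4NQO against normal. Its intensities were 4.28, 4.13 and 4.12 in normal, 4.33, 3.53 and 3.77 in 4NQO and 3.88, 3.99 and 3.95 in IL-1Ra tongue. 4NQO array 1 was the highest of the 9 and array 2 the lowest, and the difference was -0.30 ± 0.18 (SE) with limma adjusted p = 0.265. Without 4NQO array 1 it was -0.53 with adjusted p = 0.0290, so that 1 array decided this call.

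Rpl35, Rpl18 and Rpl41, all proteins of the large subunit, were chosen after their values were seen, as the core members nearest to a call. Rpl35 had 12.18, 12.12 and 12.17 in normal, 12.39, 12.39 and 12.61 in 4NQO and 12.36, 12.35 and 12.32 in IL-1Ra tongue. No exposed array reached down to the normal range, and the fold in 4NQO against normal was 1.24 (95% interval 1.06 to 1.45) with limma adjusted p = 0.0647. Over the alternatives its adjusted p ranged from 0.0358 with a trended, robust variance to 0.178 without normal array 2. Rpl18 had 12.05, 11.88 and 11.94 in normal, 12.15, 12.17 and 12.58 in 4NQO and 12.28, 12.31 and 12.31 in IL-1Ra tongue. It too had all exposed arrays above normal, with a difference of 0.34 ± 0.13 (SE) in both comparisons and limma adjusted p of 0.0968 for 4NQO and 0.159 for IL-1Ra. Rpl41, the smallest ribosomal protein, had 12.45, 12.41 and 12.46 in normal, 12.30, 12.32 and 12.54 in 4NQO and 12.57, 12.56 and 12.51 in IL-1Ra tongue. Its 4NQO arrays lay on both sides of normal, and its difference of 0.16 ± 0.10 (SE) in IL-1Ra against 4NQO had limma adjusted p = 0.427.

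The stalk was represented by Rplp0, which anchors the stalk and is often used as a reference gene. It had 12.50, 12.35 and 12.45 in normal, 12.46, 12.46 and 12.64 in 4NQO and 12.63, 12.53 and 12.58 in IL-1Ra tongue. Normal and 4NQO arrays overlapped, whereas the IL-1Ra arrays all lay above normal. The fold was 1.06 (95% interval 0.908 to 1.24) in 4NQO against normal, 1.04 in IL-1Ra against 4NQO and 1.11 in IL-1Ra against normal, with limma adjusted p = 0.585, 0.798 and 0.421.

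Among the paralogs, Rpl7l1 had the highest difference of any member in both comparisons with normal. Rpl7l1, a relative of Rpl7 that takes part in assembling the large subunit, had 8.24, 8.09 and 8.31 in normal, 8.67, 8.40 and 8.87 in 4NQO and 8.70, 8.69 and 8.84 in IL-1Ra tongue. All 6 exposed arrays lay above the 3 normal arrays, and the 4NQO and IL-1Ra ranges overlapped. The fold was 1.35 (95% interval 1.10 to 1.66) in 4NQO against normal with limma adjusted p = 0.0542, and 1.45 (1.18 to 1.78) in IL-1Ra against normal with adjusted p = 0.0669. The moderated F test over the 3 groups gave adjusted p = 0.0487. Over all alternatives the adjusted p ranged from 0.0249 without 4NQO array 2 to 0.302 with cyclic loess for 4NQO, where the difference was 0.23, and from 0.0187 with array weights to 0.226 without normal array 2 for IL-1Ra. A second probe set of Rpl7l1 gave 0.44 and 0.45 in these comparisons. Rpl7 itself had 12.55, 12.61 and 12.64 in normal, 12.57, 12.61 and 12.81 in 4NQO and 12.70, 12.67 and 12.70 in IL-1Ra tongue, with log2 differences of 0.06 and 0.09.

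Rpl3l replaces Rpl3 in ribosomes of skeletal muscle and heart. It had 10.97, 11.06 and 10.93 in normal, 11.44, 11.71 and 10.96 in 4NQO and 11.21, 10.79 and 11.08 in IL-1Ra tongue. 4NQO arrays 1 and 2 lay above all others, while 4NQO array 3 lay inside the normal range, the reverse of most members. The difference was 0.38 ± 0.18 (SE) in 4NQO against normal with limma adjusted p = 0.175, and -0.34 ± 0.18 in IL-1Ra against 4NQO with adjusted p = 0.350, the lowest of any member in that comparison. Without 4NQO array 3 these became 0.59 with adjusted p = 0.0330 and -0.55 with adjusted p = 0.0575. Of 19 skeletal muscle markers, 0 were called in 4NQO against normal. Of these markers 4 fell in IL-1Ra against 4NQO (0.753% of all genes) and 3 in IL-1Ra against normal (0.542% of all genes). Their summed intensity was 88200 to 98430 on normal, 83620 to 104300 on 4NQO and 76130 to 85430 on IL-1Ra arrays, and their part in the Rpl3l values was not tested. Rpl3 had 12.41, 12.24 and 12.39 in normal, 12.43, 12.46 and 12.85 in 4NQO and 12.51, 12.51 and 12.46 in IL-1Ra tongue, and 4NQO array 3 was its highest.

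**Figure D3:**
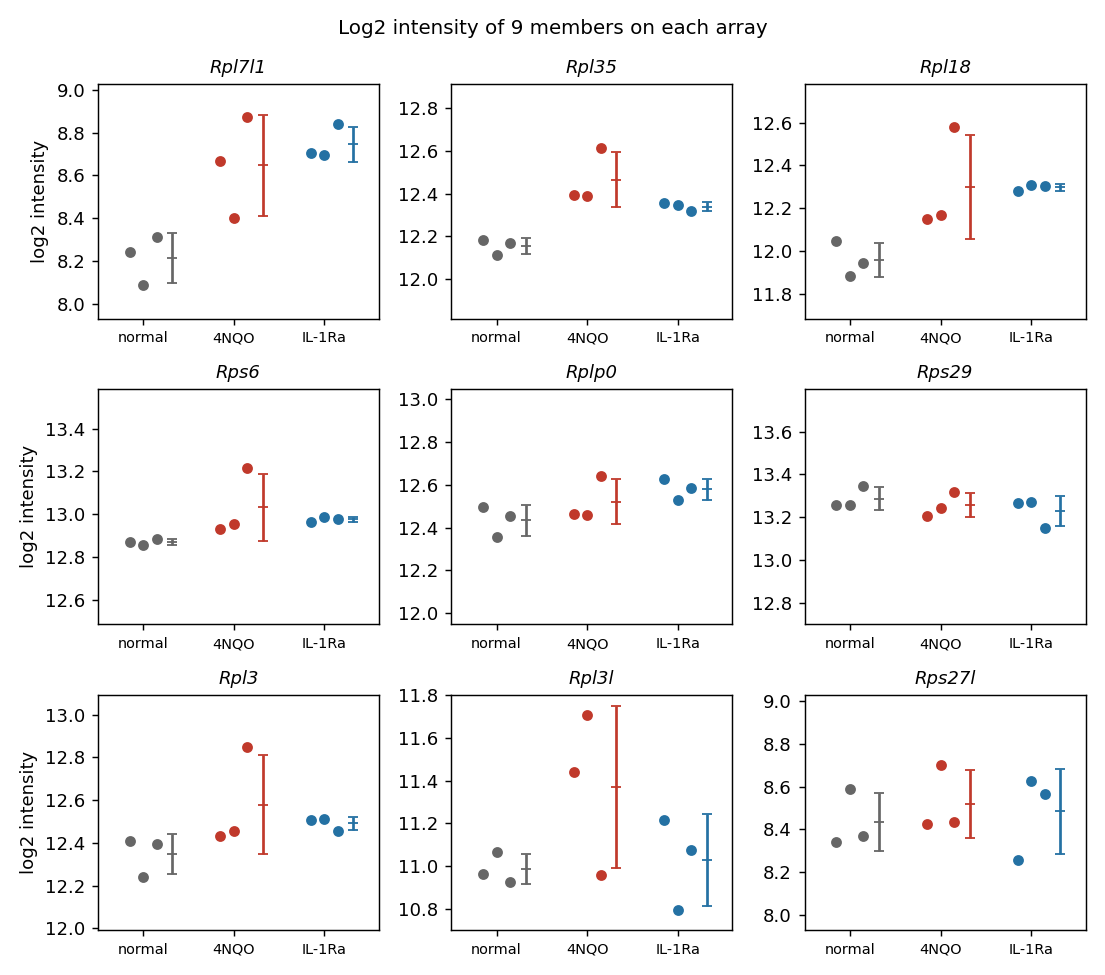
Log2 intensity of 9 ribosomal protein genes on each array (points) with the group mean and standard deviation of 3 arrays (bar beside the points), every panel spanning the same 1.1 log2 units. Rpl7l1, Rpl35, Rpl18 and Rps6 have all exposed arrays above normal, Rpl3l is high on 4NQO arrays 1 and 2, and the arrays of Rps29 overlap between all groups.

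None of the remaining paralogs was called. Rps27l, a p53-responsive relative of Rps27, had 8.34, 8.59 and 8.37 in normal, 8.42, 8.70 and 8.43 in 4NQO and 8.26, 8.63 and 8.57 in IL-1Ra tongue, with the groups overlapping and a fold of 1.06 (95% interval 0.860 to 1.31) in 4NQO against normal. Rpl39l1 had 6.03, 6.06 and 5.75 in normal, 5.84, 6.52 and 5.68 in 4NQO and 5.76, 6.46 and 6.65 in IL-1Ra tongue. Each of its groups overlapped, and its 0.28 ± 0.26 (SE) was the highest difference of a member in IL-1Ra against 4NQO, with limma adjusted p = 0.615. Rpl39, which lines the peptide exit tunnel, was dim and ranged from 4.84 to 5.41, with differences of 0.04, -0.18 and -0.14 in the 3 comparisons.

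Rps4y2 had the lowest difference of a member in IL-1Ra against 4NQO. It had 5.13, 5.31 and 4.83 in normal, 5.66, 4.82 and 5.36 in 4NQO and 4.62, 4.76 and 5.41 in IL-1Ra tongue. The groups overlapped, and the difference was -0.35 ± 0.25 (SE) with limma adjusted p = 0.491. Rpl26l1 had 4.92, 5.11 and 5.27 in normal, 5.33, 5.36 and 5.26 in 4NQO and 5.29, 5.17 and 5.41 in IL-1Ra tongue, with limma adjusted p = 0.230 and 0.365 against normal. Rpl26, a protein near the exit of the tunnel, gave 0.09 and 0.03 in those comparisons.

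Other probe sets of the same genes did not always agree. Of the 55 member probe sets, 1 was called in 4NQO against normal, where 14.9% of all probe sets were, and 0 in the other comparisons. The called one was a probe set of Rpsa whose type is shared between related transcripts. It read 11.13, 10.88 and 11.10 in normal, 11.31, 11.50 and 11.80 in 4NQO and 11.30, 11.32 and 11.26 in IL-1Ra tongue. All exposed arrays lay above normal, and the 4NQO difference was 0.50 with limma adjusted p = 0.0368, against 0.15 for the probe set that represents Rpsa. The third Rpsa probe set gave 0.17. A dim probe set of Rps24 read 3.73, 3.90 and 3.77 in normal, 3.03, 3.33 and 3.63 in 4NQO and 3.37, 3.16 and 3.27 in IL-1Ra tongue. It lay below normal on all exposed arrays, by -0.47 and -0.53 with limma adjusted p = 0.0583 and 0.0807, whereas the bright probe set of Rps24 gave 0.09 and 0.00. The second probe set of Rpl3 gave -0.11 against 0.23 for the brighter one.

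A further 36 probe sets carried several symbols of which at least 1 was a ribosomal protein, and none is named for a gene here. Adding them as a second set was decided after the data were seen. By limma 0 of the 36 were called in any comparison, with 6, 0 and 3 at an unadjusted p under 0.05, beside the 32.9%, 19.0% and 22.7% of all probe sets. Their median log2 differences were 0.13, -0.03 and 0.11, and the median deviation on 4NQO array 3 was 0.32.

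The pyrimidine run shown above was set beside the group differences. The 12 core members that have it had a median log2 difference of 0.14 in 4NQO against normal, and the 25 matched core members that lack it had 0.15. In IL-1Ra against normal the medians were 0.14 and 0.11. The ranges of the groups overlapped in every comparison, from -0.30 to 0.31 with the run and from -0.20 to 0.34 without it in 4NQO against normal. The lower ends were Rpl28 with the run and Rps13 without it, both among the dim members described above. No test of this contrast was run.

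Genes that build or assist the ribosome were read from the same fit. Of 52 ribosome biogenesis factors, 26 rose and 0 fell in 4NQO against normal, with a median log2 difference of 0.46, while over all 14217 genes 12.4% rose and 5.08% fell. Pes1, a factor that matures the large subunit rRNA, had 7.91, 7.67 and 7.89 in normal, 8.49, 8.63 and 8.81 in 4NQO and 8.58, 8.44 and 8.62 in IL-1Ra tongue. All exposed arrays of Pes1 lay above normal, by 1.77-fold in 4NQO (limma adjusted p = 0.00625) and 1.65-fold in IL-1Ra (adjusted p = 0.0366). Wdr12, its partner in the same complex, rose 1.57-fold in 4NQO with adjusted p = 0.00562, and the nucleolar chaperone Nolc1 rose 1.63-fold with adjusted p = 0.00612. Limma called 0 of the 52 in IL-1Ra against 4NQO, with 11 at an unadjusted p under 0.05, where 21.7% of all genes had such a p. The lowest adjusted p values there belonged to Nolc1 (0.0788) and to the biogenesis factors Ppan (0.0827) and Dkc1 (0.121). In IL-1Ra against normal 4 rose, where 1.66% of all genes rose, among them Bop1, the remaining partner of Pes1 and Wdr12, by 1.77-fold, and Noc4l by 1.60-fold.

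Over all genes 12.4% rose and 5.08% fell in 4NQO against normal. Of 14 genes of RNA polymerase I, which transcribes the rRNA precursor, 6 rose and 0 fell in that comparison, with a median of 0.48. Ubtf, its upstream binding factor, had 6.82, 6.79 and 6.68 in normal, 7.55, 7.53 and 7.64 in 4NQO and 7.18, 7.30 and 7.23 in IL-1Ra tongue. The 3 groups of Ubtf did not overlap. Ubtf rose 1.76-fold in 4NQO (limma adjusted p = 0.00384) and 1.39-fold in IL-1Ra (adjusted p = 0.0462) against normal, and had 0.790-fold in IL-1Ra against 4NQO with adjusted p = 0.0994. The polymerase subunit Polr1e rose 2.14-fold and the initiation factor Rrn3 1.51-fold in 4NQO against normal. Limma called 0 of the 14 in IL-1Ra against 4NQO, with 3 at an unadjusted p under 0.05 (21.7% of all genes). In IL-1Ra against normal 4 rose, where 1.66% of all genes rose, Polr1e by 2.07-fold and Polr1g by 1.61-fold among them.

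Of 17 translation factors and ribosomal fusion genes, 6 rose and 0 fell in 4NQO against normal, with a median of 0.27. Over all genes 12.4% rose and 5.08% fell. The elongation factor Eef2 rose 1.48-fold with limma adjusted p = 0.0132, Eef1d rose 1.44-fold and the initiation factor subunit Eif2s3 1.46-fold. None of the 17 was called by limma (0 of 17) in IL-1Ra against 4NQO, with 2 at an unadjusted p under 0.05 (21.7% of all genes). In IL-1Ra against normal 1 fell, where 0.542% of all genes fell, the helicase Eif4a2, with 0.628-fold of normal and adjusted p = 0.0406. Of 73 mitochondrial ribosomal proteins, which serve the separate ribosome of mitochondria, 4 rose and 0 fell in 4NQO against normal, with a median of 0.21, a smaller share than the 12.4% of all genes that rose. Mrpl38 rose 1.55-fold, Mrps27 1.35-fold and Mrpl19 1.33-fold, and 0 of the 73 were called in the other comparisons, with 11 in IL-1Ra against 4NQO and 6 in IL-1Ra against normal at an unadjusted p under 0.05, where 21.7% and 25.6% of all genes had such a p. The median deviation of the mitochondrial list was 0.18, 0.31 and 0.12 on the 4NQO arrays, lowest on the array where the cytosolic genes were highest.

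These counts depended on single arrays and on scaling, and no test compared the lists with the ribosomal protein genes. The 26 biogenesis factors became 16, 9 and 8 without normal array 1, 2 and 3, and 18 without 4NQO array 3. Over all probe sets the calls in 4NQO against normal also fell without those normal arrays, from 4610 to 1873, 1518 and 851. With quantile normalization 15 rose and 1 fell, and with cyclic loess 8 rose and 1 fell. The RNA polymerase I count was 3 without normal array 3 and 5 to 8 in the other alternatives. The translation factor count of 6 was 2 without normal array 1, 0 without normal array 2 or 3 and 4 without any 1 IL-1Ra array, and it was 2 with quantile normalization and 1, with 1 lower, by cyclic loess. In IL-1Ra against normal the biogenesis and polymerase counts were 0 without any 1 normal or IL-1Ra array. Over all probe sets those fits called 0 without any 1 normal array and 1, 6 and 1 without IL-1Ra array 1, 2 and 3. Such zeros therefore say nothing particular to these lists or to a single gene. The biogenesis count of 4 was 14 without 4NQO array 3, 15 with only the 6 compared arrays and 17 with array weights. The polymerase count of 4 was 2 without 4NQO array 1. The fall of Eif4a2 in that comparison was not called without any 1 normal array, any 1 IL-1Ra array or 4NQO array 1. With quantile normalization the biogenesis and polymerase counts were 0 and 1, and with cyclic loess 0 and 0. The mitochondrial count of 4 was 9 without 4NQO array 3, 1 to 3 without any other single exposed array, 1 without normal array 1 and 0 without normal array 2 or 3 or with either rescaling, and without 4NQO array 3, 3 mitochondrial genes fell in IL-1Ra against 4NQO.

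**Figure D4:**
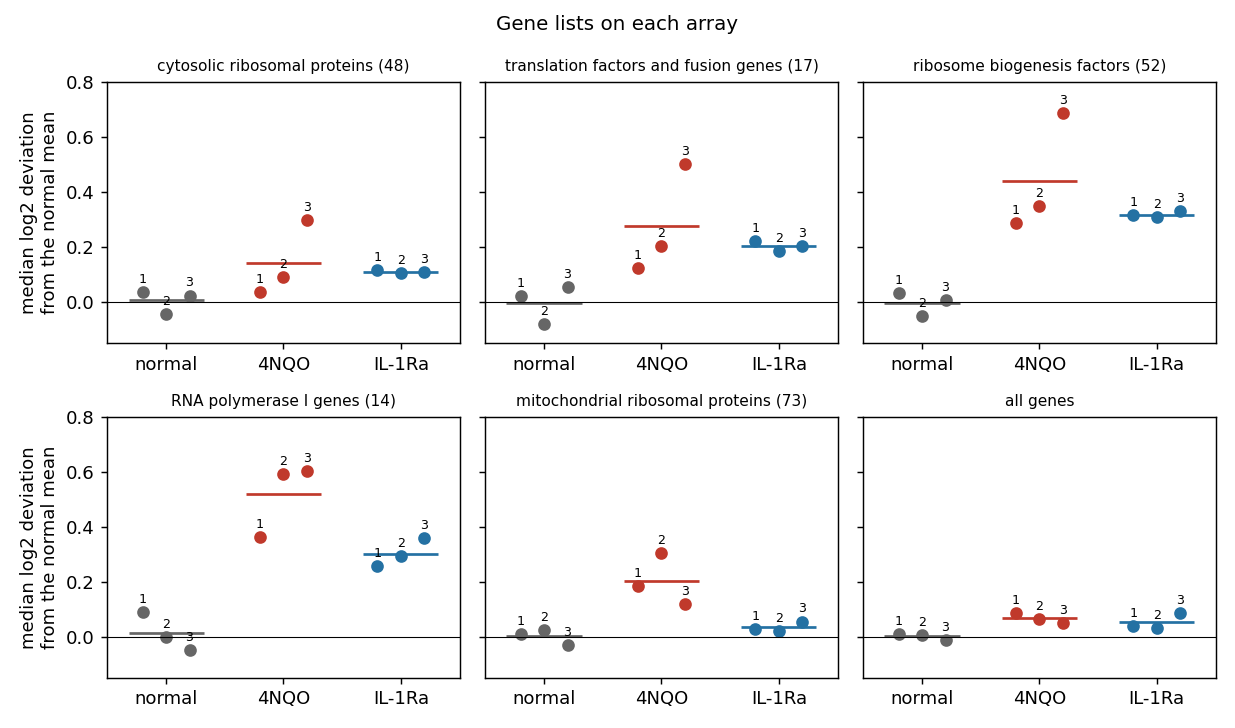
Median log2 deviation from the mean of the normal arrays, for each array (point, with its replicate number) and each of 6 gene lists, with the group mean as a line and the number of genes of each list but the last in brackets. The biogenesis and RNA polymerase I lists lie higher on the exposed arrays than the ribosomal protein genes, whose IL-1Ra arrays lie at 0.10 to 0.11.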

How the data were processed

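Total RNA of 9 tongue samples, 3 per group, was hybridised to Affymetrix rat genome expression arrays. The authors normalized the arrays by RMA in Affymetrix Expression Console and deposited 1 linear intensity per probe set. Its version is not given in the sources used here. Log2 of that intensity was taken. Of 31099 probe sets, 57 controls were left out. Of the rest, 20826 had 1 gene symbol, 436 several and 9780 none. limma 3.58.1 in R 4.3.3 fitted 3 group means to all 9 arrays (lmFit, eBayes, two-sided), with Benjamini-Hochberg adjustment over 31042 probe sets and a threshold of 0.05. Intervals are 95% and use the moderated standard error. The number of arrays limits the precision. RNA integrity was compared by exact permutation. The fit was tested on simulated data.

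Named genes were called members, paralogs beside the genes they are named after, Rplp0, Rpsa, Rps6, Rpl5 and Rpl11, members whose probe sets disagreed, the highest and lowest difference per comparison, and from each related list up to 3 with the lowest p. The members and lists were chosen with earlier results of these data known. Alternatives changed normalization, dim-probe filter, variance model, arrays, probe set and test.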

Additional observations from a re-analysis of the deposited data

How the results depend on the processing

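In 4NQO against normal the count of members called moved from 0 to 1 with median centring, 2 without the dimmest 40% of probe sets, 2 with a trended, robust variance, 1 with array weights, 2 with the mean of a gene's probe sets and 3 by the methods' t-test without a fold limit. Leaving out 1 array at a time gave 0 to 1: Rpl28 without 4NQO array 1, Rpl7l1 without 4NQO array 2 and Rpl3l without 4NQO array 3. Those fits called 12.0%, 12.85% and 14.1% of all probe sets. In IL-1Ra against normal the count of members called moved from 0 to 1 with only the 6 compared arrays (8.74% of all probe sets). It was 1 with array weights (11.5%). The methods' t-test without a fold limit gave 25 (23 higher, 2 lower), where 24.5% of all probe sets passed. Leaving out 1 array gave 0 to 1, with Rpl7l1 called without 4NQO array 2 (4.50% of all probe sets) or 3 (6.71%). In IL-1Ra against 4NQO the count was 0 in each alternative. With a fold limit of 1.5 or 2 the t-test passed 0 members in each comparison. Among differences at least as large as their standard error, the sign turned for Rpl3 in 4NQO against normal (-0.11, other probe set) and in IL-1Ra against normal (-0.18, other probe set, and -0.0168, mean of the probe sets), and for Rpsa in IL-1Ra against normal (-0.0289, other probe set). Of the differences smaller than their standard error, 14 of 18 in 4NQO against normal, 33 of 40 in IL-1Ra against 4NQO and 9 of 20 in IL-1Ra against normal changed sign in at least 1 alternative. The cause was not tested. No paired analysis was possible because the sample titles of any pair of groups share fewer than 2 numbers.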

Other observations

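Of 21 genes of mTORC1 and translation control, the pathway that acts on TOP messages, 5 rose and 0 fell in 4NQO against normal tongue by limma, with a median log2 difference of 0.29. Over all genes 12.4% rose and 5.08% fell. Ddit4, an inhibitor of mTORC1, had 8.01, 7.21 and 7.71 in normal, 8.35, 9.11 and 9.29 in 4NQO and 8.42, 8.83 and 8.82 in IL-1Ra tongue, and rose 2.42-fold in 4NQO with adjusted p = 0.0159. The scaffold Eif4g1 rose 1.49-fold and Tsc2, which restrains mTORC1, 1.44-fold. The count was 3, 2 and 1 without normal array 1, 2 and 3, and 2 with quantile normalization or cyclic loess. Calls over all probe sets fell without those normal arrays as well. In IL-1Ra against 4NQO 0 were called, with 4 at an unadjusted p under 0.05 (21.7% of all genes), and without 4NQO array 3 or without the dimmest 40% of probe sets 1 fell.

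In IL-1Ra against normal, Rps6kb1, the kinase that phosphorylates Rps6, fell to 0.664-fold with adjusted p = 0.0440, and Rragc, which recruits mTORC1 to lysosomes, rose 1.44-fold with adjusted p = 0.0469. Rps6kb1 read 7.90, 7.88 and 7.70 in normal, 7.58, 7.91 and 7.71 in 4NQO and 7.19, 7.25 and 7.26 in IL-1Ra tongue. The IL-1Ra arrays lay below all others. Without any 1 normal or IL-1Ra array neither gene was called, and at most 6 of all 31042 probe sets were. With quantile normalization, with cyclic loess and without 4NQO array 1, 0 genes of the list were called higher, so Rragc was not called. In each of those settings 1 gene of the list was still called lower.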
